A study of Mus musculus with 88 samples.

Results

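The 37 genes described here encode the receptors for glutamate and the small membrane proteins that travel with them. They were taken by symbol from a fixed list, and all 37 were found among the 53749 gene IDs of the count tables. The list holds 4 AMPA receptor subunits, 11 AMPA receptor auxiliary subunits, 5 kainate receptor subunits, 2 kainate receptor auxiliary subunits, 7 NMDA receptor subunits, 1 delta receptor and 7 metabotropic receptors. RNA of sorted nuclei and γH2AX, a histone mark of chromatin around DNA double-strand breaks, were measured in 4 month old C57BL/6J mice. The study asked how contextual fear conditioning (CFC), in which mice receive foot shocks in an unfamiliar chamber, and the stress hormone corticosterone change gene activity and DNA breaks in the brain.

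Hippocampal NeuN+ (neuronal) and NeuN- (mostly glial) nuclei came from naive mice kept in the home cage and from mice 10 min (CFC10) or 30 min (CFC30) into the procedure, with 4 libraries per group. Medial prefrontal cortex (mPFC) nuclei were sorted the same way, with 3 libraries per group. In a separate experiment, hippocampal NeuN+, GFAP+ (astrocytic), PU.1+ (microglial) and 3X- nuclei were collected 30 min after saline or corticosterone (2 mg/kg), with 4 libraries per group. The 3X- nuclei carried none of the 3 sorting markers and were enriched for oligodendrocytes. The labels name no transgene. Replicates 3 and 4 of naive hippocampal NeuN- nuclei held identical counts in all 53749 genes and were counted as 1 sample, which leaves n = 3 in that group and 73 libraries in all. Library totals ranged from 5935395 to 18271372 counts, with a median of 10923308.

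The sorted populations carried their own markers, as sums of CPM (counts scaled to the library total) over fixed marker lists. Pan-neuronal markers summed to 5533 to 5671 CPM in NeuN+ saline nuclei, against 1629 to 2015 in GFAP+, 798 to 1201 in PU.1+ and 770 to 971 in 3X- nuclei. Astrocyte markers summed to 2809 to 3648 CPM in GFAP+, microglial markers to 6370 to 6896 CPM in PU.1+ and oligodendrocyte markers to 9350 to 9860 CPM in 3X- nuclei. Neuronal marker RNA was thus still present in each glial sort, and fewer nuclei of a type cannot be told apart from less RNA per nucleus in these bulk samples. The 3X- nuclei also carried the most RNA of oligodendrocyte precursor markers among the 4 sorted populations, at 926 to 1119 CPM.

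Glutamate is the main excitatory transmitter of the brain. AMPA receptors open within milliseconds and carry most of the fast current, NMDA receptors need glutamate together with depolarization and let in calcium, and kainate receptors tune release and excitability. Metabotropic receptors act through G proteins, and the group to which Grm2 and Grm3 belong dampens glutamate release. Auxiliary subunits (the TARP proteins of the Cacng genes, cornichons, Shisa and Neto proteins) set how channels are delivered to synapses and how long they stay open. Learning is accompanied by movement of AMPA receptors into synapses, and astrocytes and oligodendrocyte precursors also carry glutamate receptors.

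Levels at baseline are given as FPKM, which is CPM divided by the length of the gene body in kb, since reads over exons and introns were counted. In naive hippocampal NeuN+ nuclei the 5 highest members were the AMPA subunits Gria1 (14.3 ± 0.43 FPKM, SD, n = 4) and Gria2 (12.8 ± 0.28), the obligatory NMDA subunit Grin1 (11.3 ± 0.22), the adult NMDA subunit Grin2a (10.5 ± 0.29) and the TARP Cacng8 (6.78 ± 0.28). Each of these lay above the next by more than 1 SD of either gene. In naive mPFC NeuN+ nuclei Grin1 stood first at 13.7 ± 0.35 FPKM (n = 3) and Gria2 next at 8.37 ± 0.16. Grin2a (5.50 ± 0.12), Gria1 (5.43 ± 0.45) and Grin2b (5.19 ± 0.080) followed, and the spread of Gria1 covered both of its neighbours. NeuN+ nuclei of the saline group gave the same 5 genes as the naive hippocampus: Gria1 14.6 ± 0.47, Grin1 13.6 ± 0.70, Gria2 11.97 ± 0.55, Grin2a 10.2 ± 0.39 and Cacng8 8.07 ± 0.26 FPKM (n = 4).

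Glial populations showed another order. Grin2c, an NMDA subunit, was the highest member in GFAP+ nuclei (24.3 ± 1.6 FPKM, n = 4), in hippocampal NeuN- nuclei (9.61 ± 0.99, n = 3) and in mPFC NeuN- nuclei (14.3 ± 1.9, n = 3). In GFAP+ nuclei Gria2 (8.18 ± 0.51), the metabotropic receptor Grm3 (4.88 ± 0.21), Cacng8 (4.69 ± 0.21) and Grin1 (3.36 ± 0.44) came next, and Grm3 and Cacng8 did not differ beyond their spread. In 3X- nuclei Grm3 (4.96 ± 0.21) and the TARP Cacng4 (4.65 ± 0.18) led, followed by Gria2 (3.10 ± 0.30), Cacng7 (2.09 ± 0.12) and the kainate subunit Grik5 (2.06 ± 0.099), of which the last pair did not differ beyond the spread. PU.1+ nuclei had no member above 2.25 FPKM, with Grin1 at 2.25 ± 0.46, Gria2 at 2.17 ± 0.38, Gria1 at 2.16 ± 0.37, the cornichon Cnih2 at 1.80 ± 0.52 and Grin2a at 1.47 ± 0.21. The 5 in PU.1+ nuclei overlapped in their spread from each to the next. After Grin2c, hippocampal NeuN- nuclei had Grm3 (5.95 ± 0.20), Gria2 (4.65 ± 0.27), Cacng4 (2.15 ± 0.084) and Cacng8 (1.95 ± 0.30), and mPFC NeuN- nuclei had Grm3 (7.53 ± 0.24), Gria2 (4.40 ± 0.070), Cacng4 (3.53 ± 0.43) and Grik5 (2.18 ± 0.13).

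**Figure D1:**
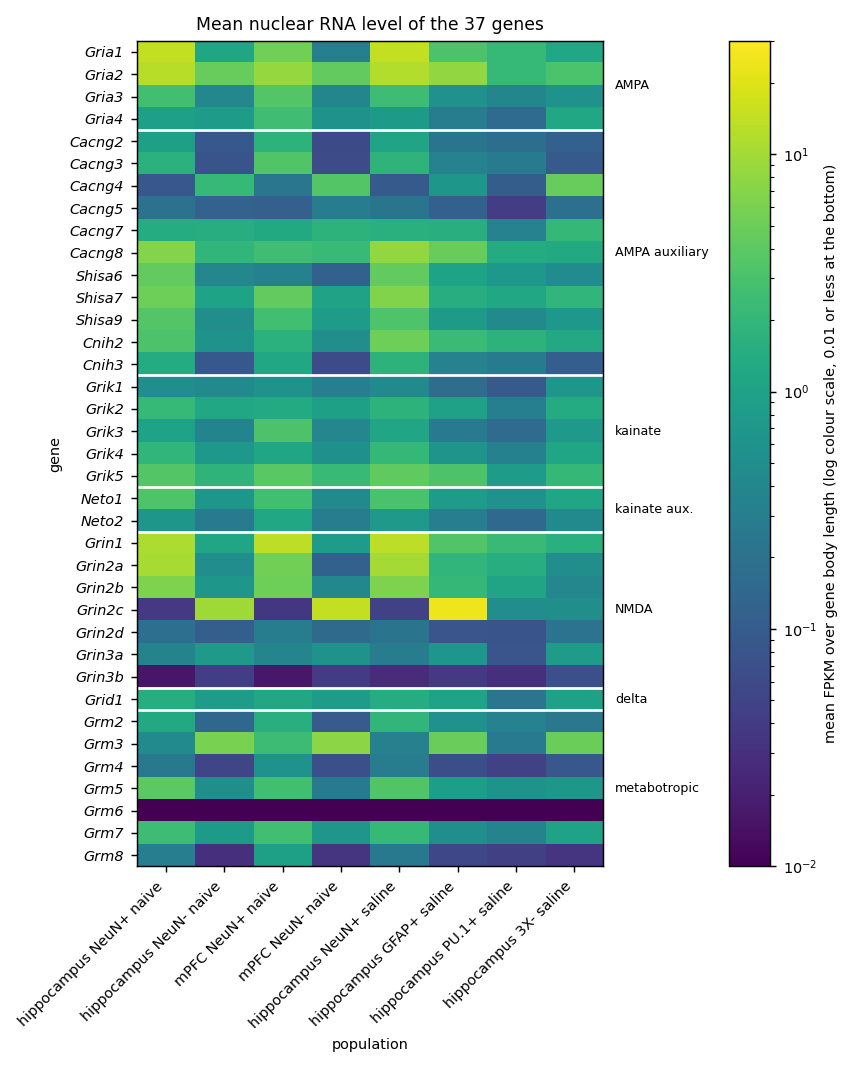
Mean FPKM (colour, log scale) of the 37 genes, one line per gene and grouped by role, in the 4 naive and 4 saline populations. Most genes are brightest in the 3 NeuN+ columns, where Grin1 lies between 11.3 and 13.7 FPKM, while Grin2c is brightest in GFAP+ nuclei at 24.3 FPKM.

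Of the 37 genes, 35 passed the filter (a mean above 0.2 FPKM in at least 1 group of a fit) in at least one comparison. Grm6, the receptor of retinal bipolar cells, had at most 6 counts in any library and Grin3b, a rarely used NMDA subunit, at most 9. Neither was tested where the filter was used, and neither could be measured well at this depth. Without the filter 36 members were called in naive hippocampal NeuN- against NeuN+ nuclei, so Grm6, Grin3b or both were called there. Reads of 5 members can also belong to other annotated genes that overlap a sizeable part of their body, namely Cacng8 (37.7%), Grin3b (34.6%), Shisa6 (28.5%), Grin1 (27.5%) and Grin2d (19.3%). The strand setting of the counts is not given in the sources used here, and reads of overlapping genes in these stretches cannot be told apart. In the other 32 members the shared part was at most 8.06%.

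Against NeuN+ nuclei, all 34 members tested differed in naive hippocampal NeuN- nuclei, where 70.8% of all genes tested were called (edgeR quasi-likelihood test, Benjamini-Hochberg adjusted p under 0.05). Of these, 30 were lower, a direction called in 33.8% of all genes, and 4 were higher. In the mPFC 34 of 35 members were called (69.5% of all genes), with 29 lower (34.1% of all genes) and 5 higher. Members had a median log2 difference of -2.49 (hippocampus) and -2.46 (mPFC), and all genes of 0.05 and 0.00. In the sorted hippocampal populations 35 of 35 members were called in GFAP+ (60.8% of all genes), 34 of 35 in PU.1+ (68.1%) and 34 of 35 in 3X- nuclei (61.3%). Lower members numbered 31 in GFAP+ (30.3% of all genes), 33 in PU.1+ (33.3%) and 28 in 3X- nuclei (29.1%).

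The members that were higher in glia than in neurons were few and differed in size by population. Grin2c was higher in all 5 comparisons. Its values were 22.9, 26.2, 24.9 and 23.0 FPKM in GFAP+ saline libraries and 0.020 to 0.077 FPKM in NeuN+ saline libraries. The NeuN+ values rest on 3 to 10 counts per library, and no library of one population came near the other. The fitted log2 difference was 8.62 ± 0.18 (SE, adjusted p = 5.88e-36) in GFAP+, 3.11 in 3X- and 2.88 in PU.1+ nuclei. Grin2c was the only member higher in PU.1+ nuclei. Astrocyte markers summed to 267.3 to 327.5 CPM in PU.1+ and 224.1 to 247.9 in 3X- saline libraries, against 23.3 to 29.56 in NeuN+ saline libraries. The part of astrocyte RNA in the Grin2c differences of PU.1+ and 3X- nuclei was not tested.

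Grm3, which signals against cyclic AMP, had 5.06, 4.84, 5.01 and 4.59 FPKM in GFAP+ and 4.86, 5.18, 5.07 and 4.72 FPKM in 3X- saline libraries. NeuN+ libraries had 0.304 to 0.353 FPKM and PU.1+ libraries 0.225 to 0.331. The GFAP+ and 3X- libraries thus lay within one range, far above the other populations (log2 difference from NeuN+ 3.54 and 3.63, adjusted p = 2.71e-31 and 1.33e-31). Cacng4, an AMPA receptor TARP, was split otherwise: 3X- libraries had 4.44 to 4.8 FPKM, GFAP+ libraries 0.570 to 0.985 and NeuN+ libraries 0.083 to 0.110. Its log2 difference was 5.30 in 3X- and 2.46 in GFAP+ nuclei. Grin3a, an NMDA subunit that lowers calcium entry, was 0.87 higher in GFAP+ and 1.24 higher in 3X- nuclei on the log2 scale.

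**Figure D2:**
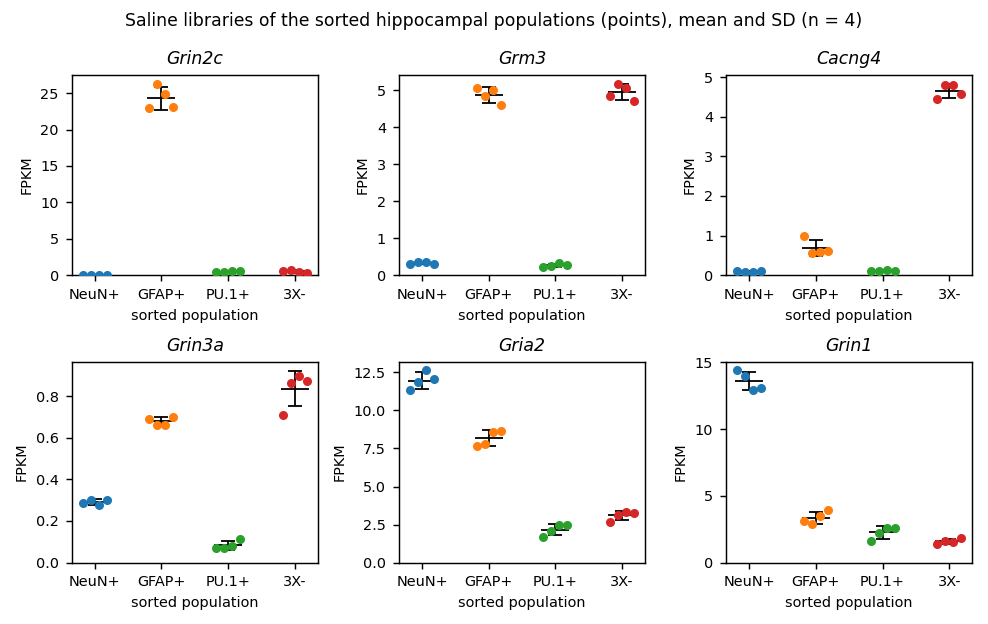
FPKM of 6 members in each saline library of the sorted hippocampal populations (points), with the mean and SD (n = 4). Grin2c stands at 22.9 to 26.2 FPKM in GFAP+ libraries only, Grm3 is high in GFAP+ and 3X- and Cacng4 in 3X- libraries, while Gria2 and Grin1 are highest in NeuN+ libraries.

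In 3X- nuclei 2 further members were called higher, the AMPA subunit Gria4 (0.35, adjusted p = 0.000894) and the kainate subunit Grik1 (0.31, adjusted p = 0.00926). Cacng5, a TARP at 0.288 ± 0.036 FPKM in mPFC NeuN- nuclei, was higher there than in NeuN+ nuclei by 0.78. Cacng7, another TARP, had 1.60 ± 0.053 FPKM in NeuN+, 1.57 ± 0.034 in GFAP+ and 2.09 ± 0.12 in 3X- saline nuclei. It was called neither in 3X- nuclei (0.10, adjusted p = 0.152) nor in mPFC NeuN- nuclei (-0.08, adjusted p = 0.436). With TMM scaling, which FPKM lacks, it was called lower in GFAP+ and PU.1+ nuclei, and it was also called in hippocampal NeuN- nuclei. Over the 8 baseline groups, Cacng4, Cacng7, Grik1 and Grin3a had their highest mean FPKM in 3X- nuclei, Grin2c in GFAP+ nuclei, and Cacng5 and Grm3 in mPFC NeuN- nuclei. Grin3b (0.071 FPKM, 3X-) and Grm6 (0.010 FPKM, PU.1+) also peaked in a glial group, but at levels under the filter.

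Members that were lower in PU.1+ nuclei fell into a narrow band. The middle part of the 35 log2 differences there ran from -3.12 to -2.75 (quartiles) around a median of -2.98, and the 4 pan-neuronal markers ran from -3.44 to -2.13. Cacng4 alone was not called (-0.37, adjusted p = 0.20). In GFAP+ nuclei the quartiles were -2.45 and -1.17, and in 3X- nuclei -3.25 and -0.59. How far neuronal RNA in the sorted glial nuclei sets these values was not tested.

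Neurons of the mPFC and hippocampus differed in most members (29 of 33, 14 higher and 15 lower in the mPFC, with 49.6% of all genes called). Region and version of the library kit (v1 for the mPFC, v2 for the hippocampus) cannot be told apart in these values. Shisa6, which holds AMPA receptors at synapses, had 4.67, 4.37, 4.25 and 4.30 FPKM in the naive hippocampus and 0.347, 0.356 and 0.317 in the mPFC, a log2 difference of -3.72. Gria1 had 14.8, 13.9, 14.5 and 14.02 FPKM against 5.36, 5.92 and 5.03 (-1.43). Neither gene overlapped between the regions. Cacng8 (-1.43), Cnih2 (-0.98), Grin2a (-0.96) and Grik4 (-0.84) were the other large falls. The largest rises in the mPFC were in Grm3 (2.42), the presynaptic receptor Grm8 (1.61), the kainate subunit Grik3 (1.59), Gria4 (1.44), Cacng4 (1.40) and the presynaptic receptor Grm4 (1.23). Grin3a, Grm2, Grm7 and Cacng7 were not called (adjusted p between 0.11 and 0.46).

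Neurons of the mPFC changed many members after CFC, with rises in Cacng2, Cacng8, Cacng3, Grm4 and Grin2a and falls in Grm2, Grm3 and Gria4 at both times. At CFC10, 14 of 33 members tested were called (42.4%, against 14.4% of all genes): 8 were higher (8.19% of all genes) and 6 lower (6.26% of all genes). At CFC30, 18 of 33 were called (54.5%, against 24.7% of all genes), 13 higher (13.1% of all genes) and 5 lower (11.6% of all genes). CFC10 and CFC30 were compared with the same 3 naive libraries. The median log2 change of the members was 0.02 at CFC10 and 0.10 at CFC30, against 0.01 and 0.00 for all genes. The largest called change was that of Grm2 at CFC30 (-0.64). Without naive replicate 1 the CFC10 count was 7, and without CFC10 replicate 1 it was 9.

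**Figure D3:**
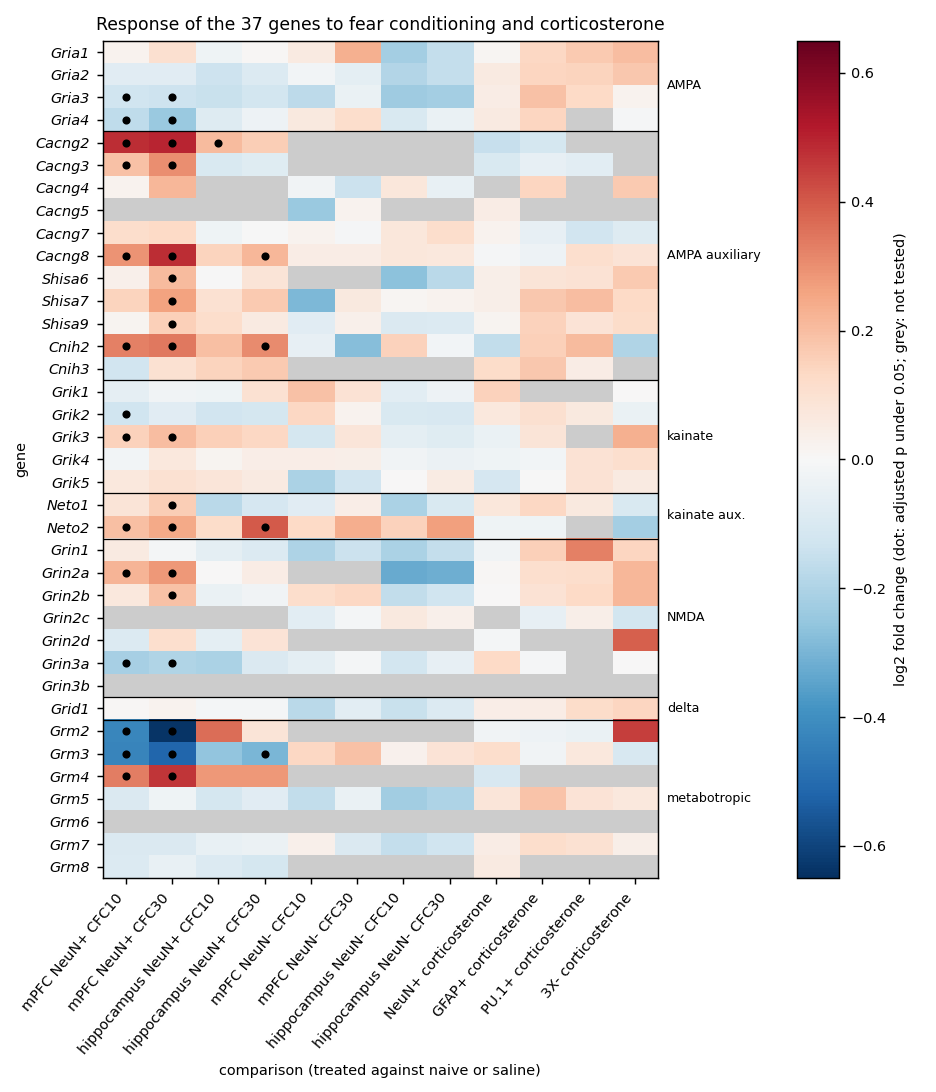
Log2 fold change (colour) of each of the 37 genes in the 12 comparisons of treated with naive or saline nuclei. Dots mark an adjusted p under 0.05 and grey marks genes not tested. Dots number 14 and 18 in the mPFC NeuN+ columns, 1 and 4 in the hippocampal NeuN+ columns and 0 in the other 8.

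Of the AMPA receptor auxiliary subunits, 4 of 10 tested rose at CFC10 and 7 of 10 at CFC30, with a median log2 change of 0.24 at CFC30. Cacng2 (stargazin, chr15:77991748-78120028, minus strand), which brings AMPA receptors to the surface, had 198, 244 and 247 CPM in the naive mPFC, 349, 308 and 305 at CFC10 and 335, 329 and 291 at CFC30. Every CFC library lay above every naive library. Its log2 change was 0.48 ± 0.070 (SE, adjusted p = 4.43e-05) at CFC10 and 0.49 ± 0.070 (adjusted p = 1.3e-05) at CFC30.

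Cacng8 (chr7:3390683-3415648, plus strand), the TARP that is most abundant in these hippocampal neurons, had 66.2, 64.8 and 60.8 CPM in naive, 85.9, 73.0 and 76.5 at CFC10 and 90.5, 86.1 and 86.8 at CFC30 libraries of the mPFC. The groups did not overlap with naive, and the log2 change was 0.29 ± 0.062 (adjusted p = 0.00203) and 0.48 ± 0.061 (adjusted p = 3.36e-06). Cacng3, a TARP of cortical neurons, had 331, 349 and 340 CPM in naive, 368, 389 and 409 at CFC10 and 429, 426 and 387 at CFC30 libraries. It rose by 0.19 (adjusted p = 0.0132) and 0.30 (adjusted p = 0.000107), again with no overlap with naive.

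Cnih2, which slows the closing of AMPA receptors, had 10.3, 8.96 and 9.12 CPM in naive, 12.3, 11.3 and 12.1 at CFC10 and 11.6, 12.8 and 10.9 at CFC30 libraries of the mPFC. All CFC libraries were higher, by 0.33 ± 0.11 (adjusted p = 0.0395) and 0.34 ± 0.10 (adjusted p = 0.018) on the log2 scale. Leaving out single libraries ended the call in 4 of 9 cases at CFC10 and 3 of 9 at CFC30, and DESeq2 did not call it. At CFC30 the Shisa genes joined the rises: Shisa7 by 0.26 (adjusted p = 0.00163), Shisa6 by 0.21 (adjusted p = 0.0177) and Shisa9 by 0.16 (adjusted p = 0.0273). Shisa6 and Shisa9 each had 1 CFC30 library inside the naive range. Cacng4, Cacng7 and Cnih3 were not called at either time, and Cacng5 was too low to test.

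The AMPA subunits themselves did not rise. Gria4 (chr9:4417896-4796234, minus strand), a subunit with fast kinetics, had 977, 959 and 960 CPM in naive, 797, 917 and 875 at CFC10 and 769, 844 and 800 at CFC30 libraries. All CFC libraries were lower, and it fell by 0.16 (adjusted p = 0.0194) and by 0.24 (adjusted p = 0.000416) on the log2 scale. Gria3 fell by 0.13 (adjusted p = 0.0219) and by 0.14 (adjusted p = 0.0106). With 1 library left out, Gria4 stayed called in 7 of 9 fits at CFC10 and 9 of 9 at CFC30. Gria3 stayed called in 7 of 9 and 8 of 9, and was not called at either time without a filter on low values. Gria1 (0.10 at CFC30, adjusted p = 0.141) and Gria2 (-0.08 at CFC30, adjusted p = 0.18) were not called at either time.

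Among the NMDA subunits, Grin2a (chr16:9567898-9995560, minus strand) had 2296, 2399 and 2358 CPM in naive, 2749, 2654 and 2829 at CFC10 and 2865, 2781 and 2798 at CFC30 libraries of the mPFC. It rose by 0.22 ± 0.038 (adjusted p = 0.000209) and 0.28 ± 0.038 (adjusted p = 6.67e-06), and the groups did not overlap with naive. Grin2b, the subunit with slow decay, was called only at CFC30 (0.19, adjusted p = 0.00187), and whether its change differed between the times was not tested. Grin3a fell by 0.21 (adjusted p = 0.0134) and by 0.20 (adjusted p = 0.0142), calls that remained in 7 of 9 and 5 of 9 fits that left out 1 library. Grin1 had log2 changes of 0.06 and -0.01 and Grin2d of -0.09 and 0.11, and neither was called.

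Kainate receptor genes changed little in the mPFC. Grik3 rose by 0.15 (adjusted p = 0.0393) and 0.20 (adjusted p = 0.00402), and Grik2 fell by 0.13 at CFC10 (adjusted p = 0.0366), a call that 5 of 9 left-out libraries ended. Of the auxiliary subunits, Neto2 rose by 0.20 (adjusted p = 0.0318) and 0.24 (adjusted p = 0.00412), and Neto1 rose by 0.16 at CFC30 (adjusted p = 0.0114). The CFC10 call of Neto2 remained in 5 of 9 fits that left out 1 library, and DESeq2 did not call it. Grik1, Grik4 and Grik5 were not called at either time, nor was the delta receptor gene Grid1.

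The metabotropic receptors moved in both directions. Grm2 (chr9:106643095-106656082, minus strand), a presynaptic brake on glutamate release, had 20.2, 18.01 and 20.5 CPM in naive, 13.97, 15.3 and 14.5 at CFC10 and 13.1, 11.8 and 12.4 at CFC30 libraries of the mPFC. All CFC libraries were below all naive libraries, and all CFC30 libraries below all CFC10 libraries. It fell by 0.43 ± 0.087 (adjusted p = 0.00136) and by 0.64 ± 0.088 (adjusted p = 8.33e-06) on the log2 scale.

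Grm3 (chr5:9485541-9725170, minus strand), its closest relative in the list, had 679, 510 and 540 CPM in naive, 443, 435 and 409 at CFC10 and 390, 374 and 431 at CFC30 libraries. The naive libraries spread most, with replicate 1 highest, and none overlapped with CFC. Grm3 fell by 0.43 ± 0.072 (adjusted p = 0.000187) and by 0.51 ± 0.072 (adjusted p = 1.04e-05), and without naive replicate 1 by 0.29 and by 0.38, still called. Grm4 had 60.4, 60.9 and 59.4 CPM in naive, 82.8, 75.1 and 70.0 at CFC10 and 88.4, 80.6 and 77.1 at CFC30 libraries, and rose by 0.33 ± 0.065 (adjusted p = 0.000884) and 0.47 ± 0.064 (adjusted p = 7.92e-06). The calls of Grm2, Grm3, Grm4, Cacng2, Cacng8 and Grin2a in the mPFC remained at both times without any single library. Grm5, Grm7 and Grm8 were not called.

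**Figure D4:**
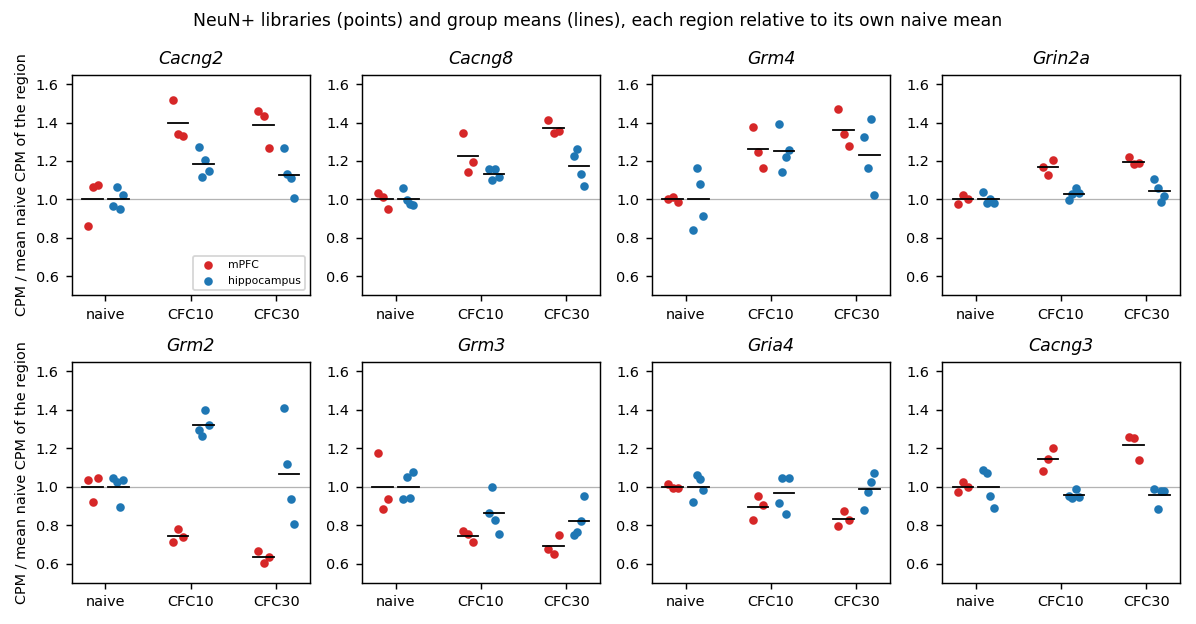
CPM of 8 members in each NeuN+ library of the mPFC (red) and hippocampus (blue), divided by the mean of the naive libraries of that region (points), with group means as lines. Cacng2, Cacng8, Grm4, Grin2a and Cacng3 rise and Grm2, Grm3 and Gria4 fall in the mPFC, while the hippocampal Grm2 libraries at CFC10 lie above all naive libraries.

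Markers of other cell types moved with these groups. The oligodendrocyte marker sum was 64.3 to 86.2 CPM in naive, 120 to 156 in CFC10 and 118 to 184 in CFC30 mPFC NeuN+ libraries, carried by Mbp (log2 change 1.15 at CFC30, adjusted p = 7.33e-07). Only 2 genes of that list passed the filter in these nuclei. Mbp alone was called at either time, and 1 of the 2 had a positive log2 change at each time. The microglial marker sum was 18.7 to 24.4 CPM in naive and 17.5 to 18.3 in CFC30 libraries. Precursor markers summed to 8.23 to 9.22 CPM in naive, 6.65 to 8.69 in CFC10 and 7.29 to 8.45 in CFC30 libraries. Gad1, a marker of inhibitory neurons, rose by 0.33 at CFC30 (adjusted p = 0.000946). It was the only 1 of 3 inhibitory neuron markers called, and 2 of the 3 had a positive log2 change. Their sum was 72.85 to 85.8 CPM in naive and 79.61 to 92.05 in CFC30 libraries, with overlap. Excitatory neuron markers summed to 514 to 523 CPM in naive, 540 to 566 in CFC10 and 526 to 549 in CFC30 libraries, and pan-neuronal markers to 6617 to 6824, 6598 to 6957 and 6468 to 6637 CPM. Of 4 excitatory neuron markers, 2 were called higher at CFC10 and 1 at CFC30. Of 4 pan-neuronal markers, 1 was called higher at CFC10, and 2 were called higher and 1 lower at CFC30. The part of these shifts in the changes of the glutamate receptor genes was not tested.

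Hippocampal neurons changed fewer members. At CFC10 only Cacng2 was called among 32 members tested (3.12%, against 4.86% of all genes), higher, a direction called in 2.72% of all genes, and none was lower (2.14% of all genes). Cacng2 had 118, 130, 117 and 125 CPM in naive and 156, 137, 148 and 141 at CFC10 libraries. The groups did not overlap, and the log2 change was 0.21 ± 0.056 (adjusted p = 0.0373). The count was 0 without any one of naive replicates 1, 3 and 4 and CFC10 replicates 1 and 3, and 6 without CFC30 replicate 1, which shared the fit. At an unadjusted p under 0.05, 14 of the 32 members passed, beside 2534 of all 12429 genes tested.

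At CFC30, 4 of 32 members were called in hippocampal neurons (12.5%, against 8.56% of all genes), 3 higher (4.67% of all genes) and 1 lower (3.89% of all genes). Neto2 (chr8:85636588-85700924, minus strand), which tunes the gating of kainate receptors, had 43.2, 44.7, 41.0 and 47.3 CPM in naive and 50.9, 61.4, 60.2 and 62.0 at CFC30 libraries. Cnih2 had 17.6, 19.1, 19.2 and 17.6 CPM in naive and 24.2, 24.1, 22.3 and 21.1 at CFC30 libraries. Neither overlapped between the groups, with log2 changes of 0.40 ± 0.071 (adjusted p = 0.00156) and 0.31 ± 0.069 (adjusted p = 0.00797).

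Cacng8 rose by 0.22 ± 0.052 (adjusted p = 0.0123) in the hippocampus at CFC30, from 164 to 180 CPM in naive to 181 to 214 CPM, without overlap but with a gap smaller than the spread within either group. Grm3 fell by 0.30 ± 0.079 (adjusted p = 0.0224), and its highest CFC30 library (101 CPM) lay inside the naive range of 98.7 to 114 CPM. The count was 2 without CFC30 replicate 2 and 7 without CFC30 replicate 4. A marker of inhibitory neurons moved beside these changes, as Gad1 rose by 0.32 (adjusted p = 0.00389). The inhibitory neuron sum was 67.1 to 85.1 CPM in naive and 89.6 to 103 in CFC30 libraries, without overlap, and the microglial marker sum was 11.9 to 17.6 and 11.4 to 15.0 CPM. The part of these shifts in the members' changes was not tested. Grm4, which was called in the mPFC, had a log2 change of 0.28 in the hippocampus at CFC30 (adjusted p = 0.0638).

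The change after CFC itself was compared between regions in one fit of both tables. At CFC10, 1 of 33 members was called (0.705% of all genes): Grm2, with a difference of -0.81 ± 0.16 (mPFC minus hippocampus, adjusted p = 0.00869). Hippocampal Grm2 had 17.7, 17.3, 15.1 and 17.5 CPM in naive and 21.9, 21.3, 23.6 and 22.3 at CFC10 libraries, and its own change of 0.36 ± 0.11 was not called (adjusted p = 0.0648). At CFC30 its hippocampal libraries spread from 13.6 to 23.9 CPM, around the naive range. At CFC30, 2 of 33 members differed between regions (2.30% of all genes), Grm2 (-0.72 ± 0.16, adjusted p = 0.0111) and Cacng3 (0.38 ± 0.085, adjusted p = 0.0106). The Cacng3 difference was not called without mPFC CFC30 replicate 1 (adjusted p = 0.0512). For the other 31 members no difference between regions was called, which does not show that the regions responded alike.

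No member was called in NeuN- nuclei after CFC with edgeR. In the hippocampus 27 members were tested at each time, with 0.345% of all genes called at CFC10 and 2.38% at CFC30. At an unadjusted p under 0.05, 4 members passed at each time, beside 2166 (CFC10) and 2427 (CFC30) of all 14802 genes tested. In the mPFC 26 members were tested, with 1.71% of all genes called at CFC10 and 5.85% at CFC30. At an unadjusted p under 0.05, 7 members passed at CFC10, beside 2396 of all 14866 genes tested. At CFC30 1 member passed, and the count of all genes at that threshold is not given here. DESeq2 called 0, 0, 0 and 1 members in these 4 comparisons. The member nearest to the threshold was Grm3 in the mPFC at CFC30, with 1869, 1757 and 1786 CPM in naive and 2112, 1969 and 1977 CPM in CFC30 libraries. All its CFC30 libraries were higher, and the log2 change of 0.19 ± 0.055 had an adjusted p of 0.0564. Grm3 was called there with DESeq2, with the replicate block, without a filter, without NeuN- CFC10 replicate 1 and without CFC30 replicate 2, the last of which also gave Neto2.

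For Grm3 the difference between cell fractions was tested directly. The CFC30 change in the mPFC was 0.70 ± 0.11 higher in NeuN- than in NeuN+ nuclei (adjusted p = 0.000421), the only one of 35 members called (4.18% of all genes). It remained called without any single library and within 0.56 to 0.78. In the hippocampus the same contrast called 0 of 34 members (0.293% of all genes) with edgeR and with DESeq2. At an unadjusted p under 0.05, 2 members passed, and the share of all genes at that threshold is not given here.

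Corticosterone gave no called change of any member in the 4 sorted hippocampal populations, with edgeR as designed or with DESeq2, but other settings called a few. In NeuN+ nuclei 33 members were tested (2.06% of all genes called, 7 members at an unadjusted p under 0.05), and their log2 changes ran from -0.16 to 0.15. In GFAP+ nuclei 30 were tested (2.93% of all genes, 4 members at an unadjusted p under 0.05), from -0.12 to 0.19. In PU.1+ nuclei 24 were tested (7.81% of all genes, 1 member), from -0.12 to 0.33. In 3X- nuclei 29 were tested (7.48% of all genes, 10 members), from -0.22 to 0.45. These shares of all genes are at the adjusted threshold. Shares at an unadjusted p under 0.05 are not given here, so the unadjusted member counts have no background beside them. The smallest adjusted p values were those of Grin2d in 3X- nuclei (0.39 ± 0.13, adjusted p = 0.0532) and Grik1 in NeuN+ nuclei (0.15 ± 0.044, adjusted p = 0.0626).

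With the replicate number as a block, Grik1 (higher) and Cacng2 (lower) were called in NeuN+, Grin1 (higher) in PU.1+ and Grin2a, Grin2b and Grin2d (higher) in 3X- nuclei. In NeuN+ nuclei Cacng2 was also called without saline replicate 4 and without corticosterone replicate 1, and Grik1 and Grm3 without corticosterone replicate 2. In 3X- nuclei Grin2d was called without saline replicate 4 and without corticosterone replicate 3, Grin2a and Grin2b without saline replicate 3, Grik3 without corticosterone replicate 1, and Gria1 and Gria2 without corticosterone replicate 2.

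Grin2d, an NMDA subunit with very slow decay, had 9.08, 8.26, 9.54 and 11.8 CPM in saline and 12.1, 13.7, 11.1 and 12.9 CPM in corticosterone libraries of 3X- nuclei. The groups overlapped by 1 library on each side. Grik1 had 186, 181, 169 and 181 CPM in saline and 211, 184, 196 and 190 CPM in corticosterone libraries of NeuN+ nuclei, and 1 corticosterone library fell inside the saline range. The differences of the corticosterone effect from that in NeuN+ nuclei called 0 of 35 members in GFAP+ (0.513% of all genes), PU.1+ (1.54%) and 3X- nuclei (2.00%) with edgeR and with DESeq2. At an unadjusted p under 0.05, 0, 1 and 5 members passed, again without a share of all genes at that threshold.

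Genes that work beside the receptors were counted from fixed lists. Of the postsynaptic scaffold genes, 7 of 17 rose at CFC10 and 9 of 17 at CFC30 in mPFC neurons (41.2% and 52.9%, against 8.19% and 13.1% of all genes called higher), and none fell. Homer1, whose short form is induced by activity and loosens links to group I metabotropic receptors, rose by 0.95 (adjusted p = 2.09e-10) and 1.63 (adjusted p = 1.45e-14). Dlgap4 (0.34 at CFC10, adjusted p = 0.000121) and Dlg4, the PSD-95 gene (0.62 at CFC30, adjusted p = 2.01e-07), came next. In hippocampal neurons 2 of 18 scaffold genes rose at CFC10, Dlgap3 (0.20, adjusted p = 0.0112) and Dlg4 (0.25, adjusted p = 0.0442), and 6 of 18 at CFC30 (11.1% and 33.3%, against 2.72% and 4.67% of all genes called higher), led by Homer1 (0.90, adjusted p = 3.59e-07) and Dlg4 (0.38, adjusted p = 0.00188).

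Of 16 AMPA receptor assembly and synaptic partner genes, 2 rose and 1 fell at CFC10 and 4 rose and 1 fell at CFC30 in mPFC neurons. These shares (18.8% and 31.2%) were near those of all genes called (14.4% and 24.7%). Prrt1, an AMPA receptor complex protein, rose by 0.50 (adjusted p = 0.00126) and 0.59 (adjusted p = 8.7e-05). The synaptic adhesion gene Lrrtm4 fell by 0.15 at CFC10 (adjusted p = 0.0143), and Olfm2 rose by 0.33 at CFC30 (adjusted p = 0.000142). In hippocampal neurons 2 rose and 1 fell at each time (18.8%, against 4.86% and 8.56% of all genes), with Lrrtm1 (-0.49, adjusted p = 0.00332) and Lrrtm3 (0.17, adjusted p = 0.0375) first at CFC10 and Prrt1 (0.55, adjusted p = 0.0057) and Lrrtm3 (0.19, adjusted p = 0.0129) first at CFC30.

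After corticosterone, 3 of 34 genes of both lists were called in NeuN+ nuclei (2.06% of all genes), all lower: Olfm1 (-0.25, adjusted p = 4.85e-05), Gsg1l (-0.22, adjusted p = 0.00683) and Shank3 (-0.17, adjusted p = 0.0211). In 3X- nuclei 5 of 31 were called (7.48% of all genes), all higher, with Olfm2 (0.61, adjusted p = 9.04e-06) and Homer2 (0.48, adjusted p = 0.00065) first, and in PU.1+ nuclei 1 of 29 (7.81% of all genes), Dlg3 (0.43, adjusted p = 0.000429). In GFAP+ nuclei none of 31 was called. Markers moved in the same 3X- comparison: all 3 precursor markers were called higher, and their sum was 926 to 1119 CPM in saline and 1133 to 1381 in corticosterone libraries, without overlap. The oligodendrocyte marker sum was 9350 to 9860 CPM in saline and 10090 to 11240 in corticosterone libraries, also without overlap. The microglial marker Csf1r (0.70, adjusted p = 0.0133) and the mural marker Rgs5 (0.49, adjusted p = 0.0463) were also called higher there. Marker sums shifted in other populations too. Astrocyte markers in PU.1+ nuclei summed to 267.3 to 327.5 CPM in saline and 442.8 to 610.6 in corticosterone libraries. Excitatory neuron markers in NeuN+ nuclei summed to 260.7 to 281.5 CPM in saline and 240 to 253.7 in corticosterone libraries. Neither sum overlapped between its groups. The part of these marker shifts in the changes of each population was not tested.

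γH2AX peaks were given as 1 list per region, 282 in the hippocampus and 260 in the mPFC, joined by the authors over naive and CFC30 and called on merged replicates, each replicate a pool of 3 animals. The lists used here hold fewer peaks than the study describes, so a gene without a peak in them may have one. They hold no values per replicate, so a peak cannot be compared between naive and CFC. In the hippocampus 6 of 37 members overlapped a peak by at least 1 bp, beside 4.15% of all genes tested in NeuN+ nuclei (516 of 12429). In the mPFC 4 of 37 did, beside 3.99% (518 of 12987). The 37 members include some that were not tested in NeuN+ nuclei.

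The hippocampal peak on Gria1 (GRCm38, chr11:57011693-57336183) covered 99.9% of the gene and ran 5939 bp past its 3′ end. The peak on Gria2 (chr3:80669641-80802952) covered 100% and ran 11809 bp past the 3′ end, and those on Grin2a (chr16:9559889-9995887) and Grin2b (chr6:135705310-136173154) covered 100% and 99.92%. Each of these peaks therefore spanned a whole receptor gene, exons and introns alike, from near its start to beyond its end. Cnih2 (peak chr19:5089138-5099669) was covered whole, together with Yif1a, which the authors name for the same peak. Grik5 was covered in part (67.01%).

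The mPFC list held peaks on Gria2 (chr3:80665021-80802741, 99.92% of the gene), Grin2b (chr6:135703757-136173224, 99.94%), Cnih2 (chr19:5075291-5101269, 100%) and Grik5 (100%). All 4 also had a peak in the hippocampus, and Gria1 and Grin2a had one in the hippocampal list alone. The authors named 5 of the 6 hippocampal and 3 of the 4 mPFC genes for their peak, with Grik5 the exception in both. Grin1, at 11.3 and 13.7 FPKM in naive NeuN+ nuclei, had no peak in either list as used here.

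The members under a peak had a median of 8.41 FPKM in naive hippocampal NeuN+ nuclei, against 1.30 FPKM for the other 31. In the mPFC the medians were 4.54 and 1.33 FPKM. The 6 hippocampal genes were 5654 to 460279 bp long, so both the shortest of the 37 (Cnih2) and some of the long ones carried a peak. Of the 6 hippocampal genes under a peak, Cnih2 alone was called after CFC30 in hippocampal NeuN+ nuclei, higher. Of the 4 mPFC genes, Cnih2 and Grin2b were called higher after CFC30 in mPFC NeuN+ nuclei, and Gria2 and Grik5 were not called. Grin2a, with a peak in the hippocampal list alone, was called higher in the mPFC. Scaffold genes overlapped a peak in 3 of 18 cases in the hippocampus (Homer1 and Dlgap1 among them) and in 4 of 18 in the mPFC (Homer1, Dlgap1 and Shank1 among them), and partner genes in 3 of 16 (Olfm1, Lrrtm1 and Prrt1) and 1 of 16 (Olfm1). Of all genes tested in NeuN+ nuclei, 4.15% overlapped a peak in the hippocampus and 3.99% in the mPFC.

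**Figure D5:**
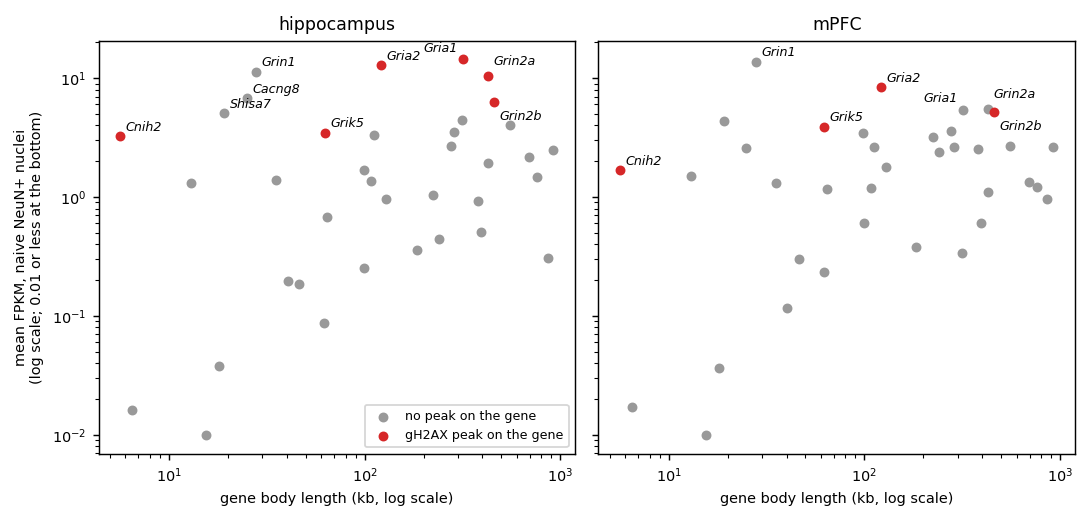
Mean FPKM in naive NeuN+ nuclei (log scale) against gene body length in kb (log scale) for the 37 genes, with members under a γH2AX peak in red. The hippocampal panel has 6 red points and the mPFC panel 4, and both include Cnih2, the shortest gene, while Grin1 at 11.3 and 13.7 FPKM is grey in both.

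Promoter sequences from RefSeq (GRCm38.p6) were held for 24 of the 37 members, 29 promoters in all, and the 250 bases before each start were searched on both strands. The motifs were those of factors that respond to neuronal activity: the full cyclic AMP response element TGACGTCA, its core TGACG (which the full element contains), the EGR motifs GCGGGGGCG and GCGTGGGCG, and the AP-1 motif TGANTCA. The full element and both EGR motifs were found in 0 of 24 members, against 1.55%, 2.57% and 0.536% of 32851 promoters. TGACG was found in Grin1 and Grm8 (17.8% of all promoters) and AP-1 in Cacng5, Grin3b and Grm8 (6.75%). The promoter of Cnih2 is shown because it lies inside the peak of both regions, and those of Grm2 and Grm3 because both genes fell in mPFC neurons after CFC. Capitals mark bases inside the hippocampal γH2AX peak, and all 3 are on the minus strand, written 5′ to 3′.
Cnih2 (chr19:5098522-5098771): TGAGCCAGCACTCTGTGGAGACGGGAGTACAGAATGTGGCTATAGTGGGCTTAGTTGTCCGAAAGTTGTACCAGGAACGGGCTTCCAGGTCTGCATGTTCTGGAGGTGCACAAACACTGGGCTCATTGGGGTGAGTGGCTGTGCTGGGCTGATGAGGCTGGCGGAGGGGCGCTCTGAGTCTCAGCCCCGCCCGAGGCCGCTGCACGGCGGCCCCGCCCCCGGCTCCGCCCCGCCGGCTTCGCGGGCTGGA
Grm2 (chr9:106656110-106656359): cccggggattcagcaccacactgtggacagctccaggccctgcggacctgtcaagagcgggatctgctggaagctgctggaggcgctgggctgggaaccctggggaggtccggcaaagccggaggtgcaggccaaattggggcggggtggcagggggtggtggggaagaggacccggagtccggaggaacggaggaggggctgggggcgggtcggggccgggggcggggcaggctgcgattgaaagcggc
Grm3 (chr5:9725353-9725602): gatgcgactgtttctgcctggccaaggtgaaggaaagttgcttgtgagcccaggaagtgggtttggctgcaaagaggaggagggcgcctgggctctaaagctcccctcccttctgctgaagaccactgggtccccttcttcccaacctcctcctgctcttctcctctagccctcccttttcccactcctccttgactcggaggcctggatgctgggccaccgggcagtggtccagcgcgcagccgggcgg

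All 250 bases of the Cnih2 promoter lay in the peak and none of those of Grm2 and Grm3. GC content was 65.6% for Cnih2, 71.2% for Grm2 and 62.4% for Grm3, with 17, 16 and 8 CpG sites. None of the 3 held any of the motifs searched, which says only that those letters are not in this window.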

How the data were processed

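Nuclear RNA was measured in 74 libraries of 20 groups, of which 73 were used. The deposited counts are raw counts per gene body, made by the authors with Trimmomatic, HISAT2 (GRCm38), Picard, SAMtools and featureCounts. The deposited peak lists carry positions and gene names and were made by the authors with Bowtie2, MACS2 and bedtools. Versions are not given in the sources used here, and the 14 ChIP libraries themselves were not analysed here.

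Gene IDs were matched to GENCODE vM21 (53682 of 53749; unmatched IDs held at most 0.0266% of counts). Genes whose group mean passed 0.2 FPKM in 1 or more groups were tested with edgeR 4.0.16 (R 4.3.3, TMM scaling, quasi-likelihood F test) over the whole table, and called at a Benjamini-Hochberg adjusted p under 0.05. Naive, CFC10 and CFC30 libraries of one fraction and region were fitted together, each corticosterone population with its saline group, and contrasts between populations in a fit of all their groups. Error is the SD between libraries or the SE of the fit. The labels call the libraries replicates without naming the animals, so p-values measure the spread between libraries. A peak counted from 1 bp of overlap. The fits were checked on simulated counts. DESeq2 1.42.0, other scalings, no filter, a replicate block and each library left out were alternatives.

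Members and lists were chosen with earlier results of these data known. Every called member was named where at most 12 were called, otherwise the 6 largest changes each way, the 5 highest members per population and, per pathway list, the 2 with the smallest adjusted p. Other names were added after their values were seen. The replicate numbers were not taken as pairs. Some genes outside the member list are not reported here.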

Additional observations from a re-analysis of the deposited data

Results flagged for a closer look

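The change after CFC differed between groups for 3 members, by the test of the difference itself. For Grm2 in NeuN+ nuclei the log2 difference, mPFC minus hippocampus, was -0.81 at CFC10 and -0.72 at CFC30. For Cacng3 in NeuN+ nuclei at CFC30 it was 0.38. For Grm3 in the mPFC at CFC30 the change in NeuN- nuclei exceeded that in NeuN+ nuclei by 0.70.

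Single libraries stood apart from the other 3 of their group in 16 of 413 member and group combinations with at least 50 counts (3.87%; chance gives about 1 in 20). The measure is the gap to the nearest library divided by the range of the group, above Dixon's 95% critical value for 4 libraries. In GFAP+ nuclei, saline replicate 2 was lowest for Shisa6 (0.955), Neto1 (0.848) and Grm7 (0.847). In the same population, saline replicate 1 was highest for Cacng4 (0.881, with 61.3 CPM against 38.5 CPM for the nearest), and corticosterone replicate 1 was highest for Cacng4 (0.833, with 72.5 against 40.1 CPM) and Grik1 (0.911, with 105 against 65.7 CPM). In these libraries precursor markers summed to 268.5 CPM (saline replicate 1) and 291.7 CPM (corticosterone replicate 1), against 166 to 182 in the other 6 GFAP+ libraries, and oligodendrocyte markers to 1164 and 1500 CPM, against 659 to 816. The part of these markers was not tested. In NeuN+ saline nuclei, replicate 1 was lowest for Gria3 (0.877) and replicate 4 lowest for Grid1 (0.919). In 3X- saline nuclei, replicate 4 was highest for Cacng8 (0.903) and replicate 1 lowest for Grin3a (0.834). In hippocampal NeuN+ nuclei, naive replicate 3 was lowest for Grm2 (0.858), naive replicate 2 highest for Shisa9 (0.899), CFC10 replicate 3 lowest for Grm8 (0.877), CFC30 replicate 2 lowest for Cacng3 (0.874) and CFC30 replicate 1 lowest for Neto2 (0.834). In hippocampal NeuN- nuclei, CFC10 replicate 4 was highest for Neto1 (0.951).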

How the results depend on the processing

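Counts of called members were recomputed under each alternative, 3 of which were added after seeing the data (library totals without scaling, both identical libraries kept, a block within condition). Of 819 values in all, the counts of members stayed within 1.5 times in 540 cases and moved in 54. A count has no direction to turn. In a tally of members named by rule after CFC, log2 changes stayed called in 209 cases and lost the call in 16. None of these turned direction. The tally left out Shisa6, Shisa7, Shisa9, Grin2b, Grik3 and Neto1 at mPFC CFC30, and most fits without 1 library. Over all such fits, losses exceeded 16. Cacng2 (hippocampal NeuN+ CFC10) stayed called in 7 of 12 and Grik2 (mPFC NeuN+ CFC10) in 4 of 9. Grm2 (mPFC NeuN+ CFC10) stayed called in 9 of 9. Without a filter on low values the counts became 9 (hippocampal NeuN+ CFC10), 9 (CFC30), 2 and 1 (hippocampal NeuN- CFC10 and CFC30), 1 and 3 (mPFC NeuN- CFC10 and CFC30), 3 (PU.1+ corticosterone), 1 (3X- corticosterone), 2 and 3 (CFC30, NeuN- minus NeuN+, hippocampus and mPFC), and 4 and 7 (CFC10 and CFC30, mPFC minus hippocampus). With the replicate block they became 4 (hippocampal NeuN+ CFC10), 1 (mPFC NeuN- CFC30), and 2, 1 and 3 (NeuN+, PU.1+ and 3X- corticosterone), and with the block within condition 2 (CFC30, NeuN- minus NeuN+, mPFC). The replicate block moved no other count by over 1.5 times. DESeq2 gave 1 (mPFC NeuN- CFC30), the kept identical library 1 (hippocampal NeuN- CFC30) and library totals 3 (hippocampal NeuN+ CFC10). Causes were not tested.

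Leaving out single libraries gave 0 to 6 (hippocampal NeuN+ CFC10), 2 to 7 (CFC30), 7 to 14 (mPFC NeuN+ CFC10), 14 to 18 (CFC30), 0 to 2 (mPFC NeuN- CFC30, without CFC30 replicate 2; NeuN+ corticosterone, without corticosterone replicate 2; 3X- corticosterone, without saline replicate 3 or corticosterone replicate 2), 0 to 1 (CFC30, NeuN- minus NeuN+, hippocampus, without NeuN+ CFC30 replicate 4; corticosterone, 3X- minus NeuN+, without 3X- saline replicate 4 or corticosterone replicate 3), 1 to 4 (CFC30, NeuN- minus NeuN+, mPFC, without NeuN- CFC30 replicate 2; CFC30, mPFC minus hippocampus, without hippocampal CFC30 replicate 1) and 1 to 2 (CFC10, mPFC minus hippocampus, without hippocampal naive replicate 4).

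Library totals in place of TMM moved the median of all genes between NeuN- and NeuN+ nuclei to 0.51 in the hippocampus and mPFC, and to 0.29, 0.46 and 0.29 in GFAP+, PU.1+ and 3X- nuclei. No called member changed sign, and 31, 35, 34, 34 and 33 members were called. Depth limits Grin2c in neurons, Grin3b and Grm6, and 3 or 4 libraries per group limit small changes.

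The labels do not say what a replicate number shares. In no set of groups did every same-numbered pair of libraries have a correlation of deviations over 0.1. The numbers were not taken as pairs, and this rule does not settle whether fractions shared animals. Tests between fractions or sorted populations thus treated their libraries as independent. With the block within condition the 5 baseline counts against NeuN+ stayed at 34, 34, 35, 34 and 34. The Grm3 difference between mPFC fractions stayed called under 6 of 6 alternatives, this block among them. Correlations ran from -0.155 to 0.218 across conditions in hippocampal NeuN+ and from -0.030 to 0.134 in mPFC NeuN+ libraries. All were positive between the mPFC fractions of one condition (0.033 to 0.154), between saline populations (0.021 to 0.260) and between saline and corticosterone in GFAP+ (0.084 to 0.487) and 3X- nuclei (0.032 to 0.154). A library correlated best with its own number in 17 of 18 cases between the mPFC fractions and 41 of 48 between saline populations, a hint from the data and not from the design, and in 9 of 24 and 6 of 18 cases across conditions in hippocampal and mPFC NeuN+ libraries.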
